A study of Ophioderma brevispina with 7 samples.

Results

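The transcripts described here are the abundant clusters that were higher in every DAPT-treated animal than in every control animal, in regenerating arms of the brittle star Ophioderma brevispina. A cluster is a set of assembled contigs that share sequencing reads, and it stands in for a gene in this species, whose transcripts were assembled de novo. Clusters were taken if they had a mean raw count of at least 1000 over the 6 libraries, were not among the 200 most abundant, had a higher level in the lowest DAPT library than in the highest DMSO library, and had a mean level at least 2 times as high under DAPT. The level is the CPM, the counts of a cluster in a library per 1000000 counts of that library. Of 1012953 clusters in the table, 5208 met the conditions on abundance, and 99 of these (1.9%) met the rule. The members were therefore selected on the DAPT against DMSO difference itself, and their levels are given as a description with no test.

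The RNA came from 3 DAPT-treated animals, kept in 3 µM DAPT, and 3 control animals, kept in the solvent DMSO. Exposure began a day before the arms were made to autotomize at segment 15 and lasted until tissue was collected on day 14 post-autotomy. Each library held the outgrowth and the most distal stump segment of 3 arms of 1 animal and n counts animals. The labels give no genotype, sex or age, and the tissue was a mixture of all arm cell types, so more cells of a type and more RNA per cell cannot be told apart.

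Notch is a receptor through which neighbouring cells signal by direct contact. When a ligand of the Delta or Serrate family binds, the protease gamma-secretase releases the intracellular domain of the receptor, which enters the nucleus and, with the DNA-binding protein RBPJ, activates target genes such as those of the Hes family. DAPT inhibits gamma-secretase, an enzyme that also cleaves membrane proteins other than Notch. In brittle stars, lost arms regrow from the stump and rebuild the radial nerve cord, the water-vascular canal, muscles and skeletal plates. The clusters carry numbers only. The number before the point names a super-cluster, which joins all contigs linked by shared reads, and the number after the point names the cluster within it, so that related transcripts and isoforms often share a super-cluster. The deposited table does not pair these numbers with sequences or gene names, and no role in the pathway can be given to any of them here.

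Totals ran from 47579683 to 63069231 counts in the DAPT libraries and from 35731131 to 53975986 in the DMSO libraries. The largest super-cluster, Cluster-178672, joined 421246 clusters and took 60.4 to 61.8% of the counts of each library. The 200 most abundant clusters, set aside by the rule, took 14.7 to 16.9%. TMM factors, which correct for differences in library composition, lay between 0.967 and 1.03. All pairs of libraries differed by more than sampling noise.

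Together the 99 clusters took 0.652, 0.673 and 0.598% of all counts in DAPT animals 1, 2 and 3, against 0.188, 0.241 and 0.248% in DMSO animals 1, 2 and 3. The means were 0.641 ± 0.0384% under DAPT and 0.226 ± 0.0329% under DMSO (SD, n = 3 each). The groups did not overlap, as the rule fixes. Most members differed moderately. The ratio of mean CPM, DAPT over DMSO, was between 2 and 3 in 63 members, between 3 and 5 in 23 and at least 5 in 13. Its median was 2.59 and its quartiles were 2.22 and 3.45. Over all 5208 clusters the median ratio was 1.04. The members' mean CPM over the 6 libraries ran from 19.6 to 276 with a median of 30.4, against a median of 36.2 for all 5208.

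**Figure D1:**
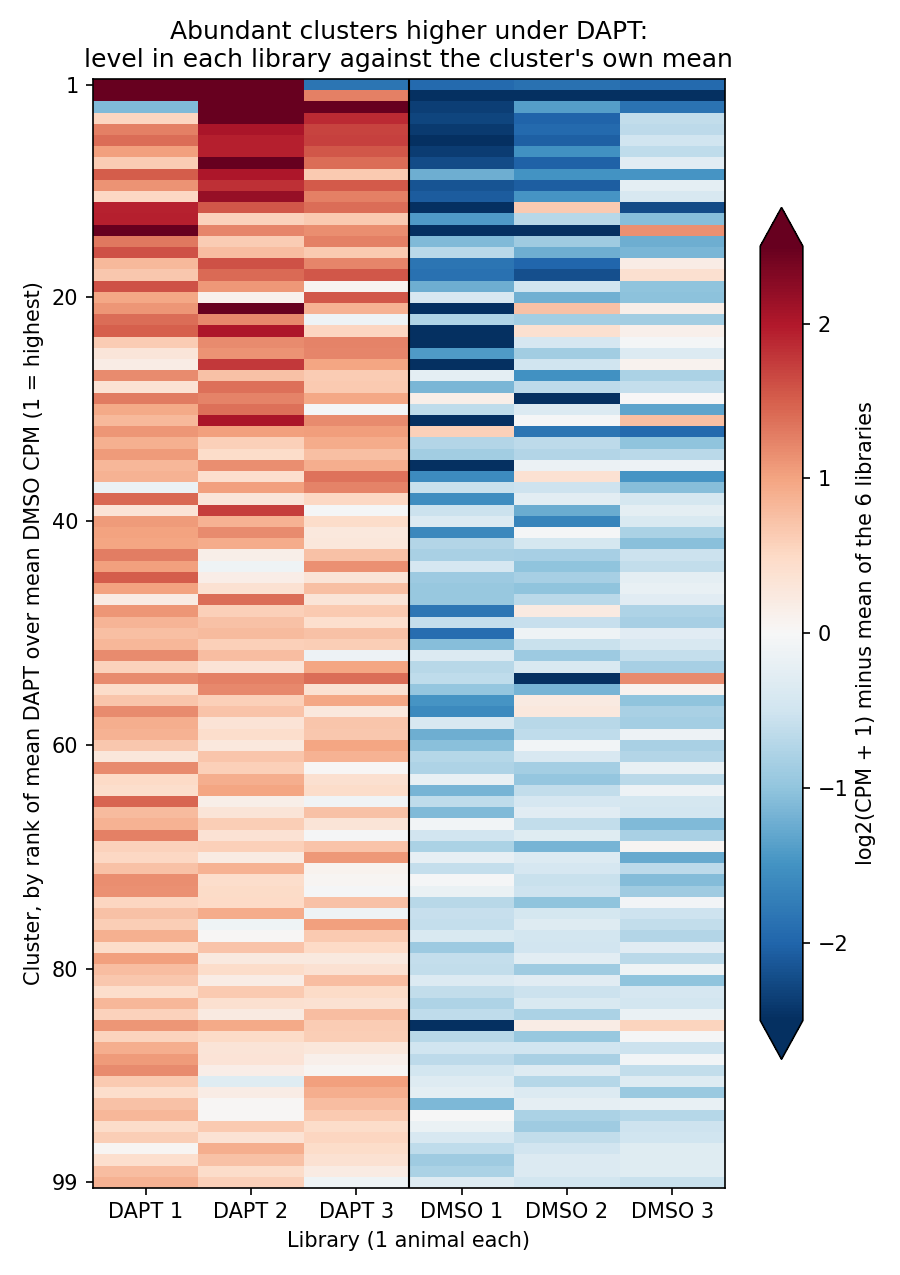
Level of the 99 clusters (1 row each, ordered by the ratio of mean DAPT over mean DMSO CPM) in the 6 libraries, as log2(CPM + 1) minus the cluster's mean over the libraries. Red is above and blue below that mean, with colours cut at 2.5 in both directions. Every row is redder in its 3 DAPT columns than in its 3 DMSO columns, which the rule requires, and single dark blue cells mark members that were nearly absent in 1 DMSO animal.

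The groups were separated narrowly in most members. The lowest DAPT level exceeded the highest DMSO level by a median factor of 1.46, and by at least 2 in 14 members. Without the condition on the ratio, 583 of the 5208 clusters (11.2%) were higher in every DAPT library. With the groups exchanged, the rule found 90 clusters (1.73%) lower under DAPT. Applied to the 18 choices of 3 libraries that mix both treatments, the rule found 26 to 108 clusters with a median of 49, and 1 of the 18, DAPT 2 and 3 with DMSO 2, gave more than 99. The number also changed with 1 library left out, which loosens the condition on overlap and shifts the mean raw count. It was 161, 160 and 180 without DAPT animals 1, 2 and 3, and 176, 254 and 175 without DMSO animals 1, 2 and 3. Of the 99 members, 57, 82 and 83 met the rule without DAPT 1, 2 and 3, and 88, 87 and 90 without DMSO 1, 2 and 3. Members cannot lose the separation of the groups in this way, only the conditions on abundance or on the ratio. Without DAPT 1, the library with the most counts, 4807 clusters met the conditions on abundance.

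By the median coefficient of variation, animals of a group differed more in the members than in abundant clusters at large. The coefficient of variation among the 3 DAPT animals had a median of 27.7% over the members and 22.4% over the 5208 clusters, and among the 3 DMSO animals it had a median of 32.8% over the members and 19.7% over the 5208. The highest DAPT animal was DAPT 1 in 45 members, DAPT 2 in 30 and DAPT 3 in 24. The highest DMSO animal was DMSO 1 in 24 members (24.2%), DMSO 2 in 33 (33.3%) and DMSO 3 in 42 (42.4%). Over the 5208 clusters these shares were 36.3, 31.1 and 32.7%. DMSO 1 was the lowest control in 45 members (45.5%), against 26.7% of the 5208 clusters. The variation and these shares were read from the same levels that the rule selected on. They describe the selected clusters, and how far the rule itself sets them was not tested.

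**Figure D2:**
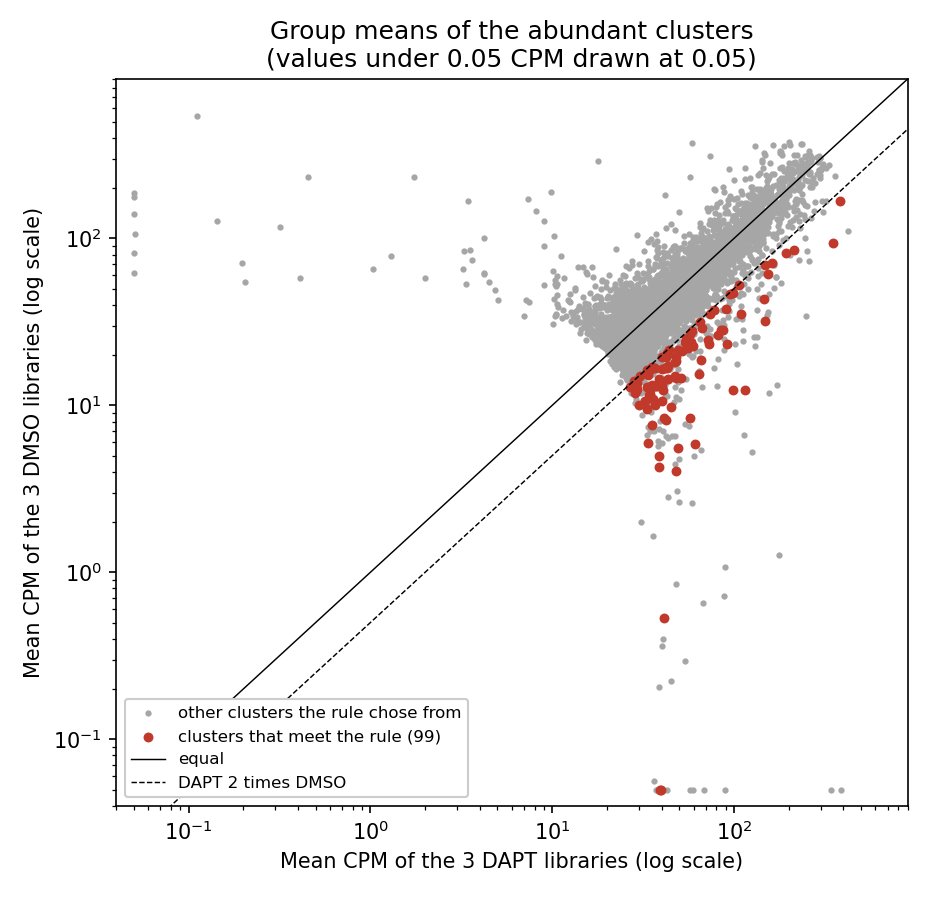
Mean CPM of the 3 DAPT libraries (horizontal, log scale) against mean CPM of the 3 DMSO libraries (vertical, log scale) for the 5208 clusters the rule chose from, with the 99 members in red. The members lie below the dashed line, where DAPT is 2 times DMSO, and mostly close to it, and grey points below the line are clusters whose groups overlapped in at least 1 animal.

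A few clusters stand at each limit of the rule. For the ratio, Cluster-178672.303933 (2.003) and Cluster-310308.1 (2.008) were just inside, and Cluster-108257.17 (1.998) and Cluster-92416.6 (1.997) just outside. For the separation of the groups, the lowest DAPT level was 1.001 times the highest DMSO level in Cluster-178672.362014 and 1.006 times in Cluster-167132.4, which were kept. It was 0.993 times in Cluster-178672.218426 and 0.991 times in Cluster-178672.52736, which were not. For abundance, the mean raw count was 1003 in Cluster-178672.190868 and 1005 in Cluster-178672.378766, both kept, and 989 in Cluster-178672.219411 and 986 in Cluster-339334.1, both left out. One more cluster met every other condition but was among the 200 most abundant, which began at a mean of 304 CPM.

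The 3 members with the highest ratios were nearly absent from control arms. Cluster-208037.0, the only cluster of its super-cluster, had 56.9, 48.4 and 13.1 CPM in DAPT animals 1, 2 and 3, against 0.0246, 0 and 0.0556 CPM in DMSO animals 1, 2 and 3. These are 6519 counts in the DAPT libraries and 4 in the DMSO libraries. The pooled level was 1340 times as high under DAPT, with an exact 95% interval of 523 to 4918 that covers counting error only. In the DMSO library without a count, a count of 0 allows up to 0.0840 CPM. This member had the widest gap of the 99, with a lowest DAPT level 236 times the highest DMSO level.

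Cluster-178672.344348 had 6933 counts under DAPT and 2 under DMSO, but nearly all its DAPT counts came from 2 animals. Its levels were 86.4, 31.1 and 0.0835 CPM in DAPT animals 1, 2 and 3, and 0, 0.0560 and 0 CPM in DMSO animals 1, 2 and 3. The pooled ratio was 2849 (exact 95% interval 788 to 23532, counting error only), while DAPT 3 and DMSO 2 had 4 and 2 counts, too few to be told apart. The counts of 0 in DMSO 1 and 3 allow up to 0.0738 and 0.0556 CPM. Cluster-178672.378766 also varied widely among the DAPT animals, but in the reverse order. It had 1.49, 30.6 and 92.0 CPM in DAPT 1, 2 and 3, against 0.0492, 1.06 and 0.482 CPM in DMSO 1, 2 and 3. Its mean was 77.9 times as high under DAPT, and its lowest DAPT animal exceeded its highest DMSO animal by a factor of 1.40. These were the 2 members (2.02%) in which the lowest DAPT animal was under 10% of the highest one, against 313 of the 5208 clusters (6.01%). The rule restricts such members, since the lowest DAPT animal had to exceed every DMSO animal.

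**Figure D3:**
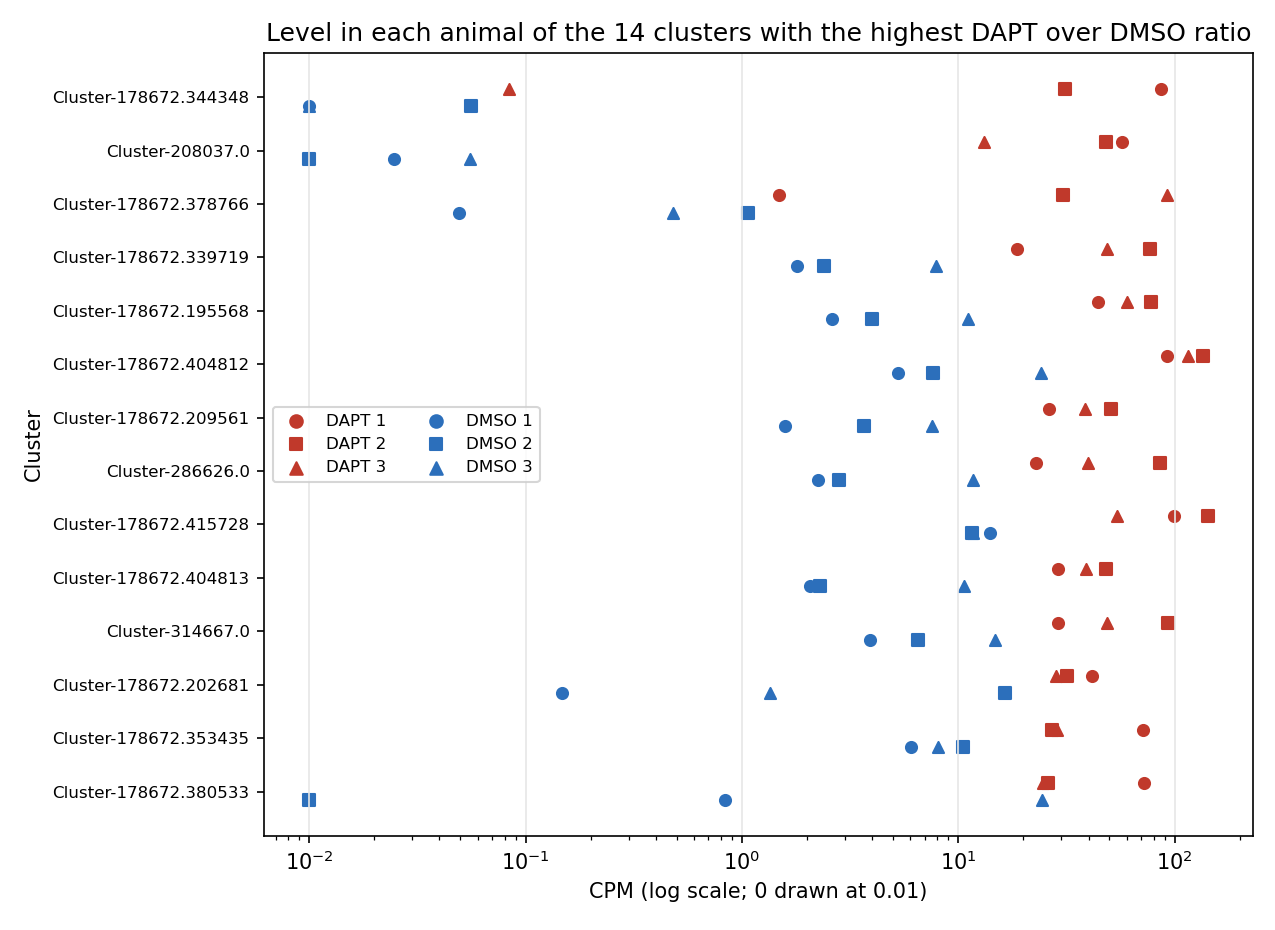
CPM (log scale, 0 drawn at 0.01) in each animal for the 14 members with the highest ratio of mean DAPT over mean DMSO CPM, DAPT in red and DMSO in blue, with 1 symbol per animal number. The upper 3 clusters were at 1.06 CPM or less in every DMSO animal, and in 6 of the next 7 the square of DAPT 2 is the highest red symbol and the triangle of DMSO 3 the highest blue one.

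The next members by ratio shared an order of animals. Cluster-178672.339719 had 18.7, 76.8 and 48.7 CPM in DAPT 1, 2 and 3, against 1.80, 2.41 and 7.91 CPM in DMSO 1, 2 and 3. Cluster-178672.195568 had 44.3, 77.8 and 60.4 CPM in DAPT 1, 2 and 3, against 2.61, 3.97 and 11.04 CPM in DMSO 1, 2 and 3. In both, DAPT 2 was the highest treated animal and DMSO 3 the highest control. Cluster-178672.404812 had 92.5, 136 and 115 CPM in DAPT 1, 2 and 3, against 5.27, 7.64 and 24.1 CPM in DMSO 1, 2 and 3. Its neighbour by number, Cluster-178672.404813, had 28.9, 47.9 and 38.8 CPM in DAPT 1, 2 and 3, against 2.07, 2.29 and 10.6 CPM in DMSO 1, 2 and 3. The pair ranked the 6 animals alike at different levels, with means 9.27 and 7.73 times as high under DAPT.

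Cluster-178672.209561 had the same order at 26.3, 50.8 and 38.3 CPM in DAPT 1, 2 and 3, against 1.58, 3.67 and 7.60 CPM in DMSO 1, 2 and 3. Cluster-286626.0 had 22.9, 86.0 and 39.6 CPM in DAPT 1, 2 and 3, against 2.24, 2.80 and 11.7 CPM in DMSO 1, 2 and 3, a difference of 8.88 times between the means. It lies outside the largest super-cluster, so the pattern was not limited to that one. In all, DAPT 2 was the highest treated animal and DMSO 3 the highest control in 20 of the 99 members (20.2%). The same held in 373 of the 5208 clusters (7.16%), and the order was read from levels that the rule used. The 20 members had a median ratio of 3.20 and held 6 of the 10 highest ratios. Cluster-178672.415728 differed from them. It had 99.5, 142 and 54.3 CPM in DAPT 1, 2 and 3, against 14.1, 11.5 and 11.7 CPM in DMSO 1, 2 and 3, with control animals much closer together.

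Among the most abundant members the ratios were smaller. Cluster-178672.176425 had the highest mean level, with 349, 281 and 520 CPM in DAPT 1, 2 and 3, against 213, 191 and 101 CPM in DMSO 1, 2 and 3. Cluster-178672.270573 had 219, 649 and 184 CPM in DAPT 1, 2 and 3, against 1.21, 168 and 112 CPM in DMSO 1, 2 and 3. The mean of this cluster rested on DAPT 2, and DMSO 1 was nearly without it. Its neighbour by number, Cluster-178672.270574, had 46.8, 111 and 60.4 CPM in DAPT 1, 2 and 3, against 0, 25.4 and 44.4 CPM in DMSO 1, 2 and 3, and was likewise without counts in DMSO 1, where 0 counts allow up to 0.0738 CPM.

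Steadier differences were found in other abundant members. Cluster-203478.3 had 172, 107 and 165 CPM in DAPT 1, 2 and 3, against 31.2, 36.2 and 28.5 CPM in DMSO 1, 2 and 3, so that every treated animal was at least 2.96 times as high as every control. Cluster-178672.406699 had 116, 94.6 and 118 CPM in DAPT 1, 2 and 3, against 36.7, 38.8 and 30.3 CPM in DMSO 1, 2 and 3. Cluster-178672.117973 had 67.2, 61.3 and 49.4 CPM in DAPT 1, 2 and 3, against 23.9, 24.2 and 20.1 CPM in DMSO 1, 2 and 3. In these 3 clusters the gap between the groups, in CPM, was wider than the range within either group.

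Other abundant members were separated by less. Cluster-178672.31606 averaged 215 ± 29.5 CPM under DAPT and 84.9 ± 54.6 CPM under DMSO (SD, n = 3 each). Cluster-178672.364044 averaged 192 ± 32.1 CPM under DAPT and 82.0 ± 22.9 CPM under DMSO. Cluster-201817.1 averaged 161 ± 8.86 CPM under DAPT and 70.9 ± 32.1 CPM under DMSO. The lowest treated animal exceeded the highest control by factors of 1.30, 1.54 and 1.45 in these 3 clusters. Cluster-81084.0 averaged 148 ± 27.9 CPM under DAPT and 69.6 ± 9.42 CPM under DMSO, and Cluster-323787.0 averaged 107 ± 14.9 CPM under DAPT and 52.8 ± 11.2 CPM under DMSO.

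Members were grouped by the size of their super-cluster. Of the 99, 6 were alone in theirs, 37 shared one of 33 super-clusters of 2 to 33 clusters, and 56 belonged to the largest one. These are 6.06, 37.4 and 56.6% of the members, against 4.51% of all 5208 clusters alone (235 clusters), 32.8% sharing a smaller super-cluster (1706) and 62.7% in the largest one (3267). The median ratio was 2.42 for those alone, 2.44 for those sharing and 2.98 for those in the largest super-cluster. For clusters in the largest super-cluster no sum was formed, because it joined most of the library.

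Besides Cluster-208037.0, the 5 members alone in their super-cluster were Cluster-214139.0, Cluster-249497.0, Cluster-373002.0, Cluster-206665.0 and Cluster-346354.0. Cluster-373002.0 had 180, 122 and 156 CPM in DAPT 1, 2 and 3, against 71.9, 58.9 and 52.5 CPM in DMSO 1, 2 and 3. Cluster-214139.0 had 76.3, 231 and 133 CPM in DAPT 1, 2 and 3, against 10.8, 47.5 and 71.7 CPM in DMSO 1, 2 and 3. In Cluster-214139.0 DAPT 1 was 1.06 times as high as DMSO 3, and the control animals differed widely. Cluster-249497.0, Cluster-206665.0 and Cluster-346354.0 had ratios of 2.35, 2.14 and 2.04.

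For the 33 smaller super-clusters the counts of all clusters were added up, which asks whether the whole family of linked contigs was higher under DAPT or only the member. The summed level was higher in every DAPT animal than in every DMSO animal in 29 of 33, and in 26 of these with a mean at least 2 times as high. Among all 2369 super-clusters with a mean sum of at least 1000 counts, 351 (14.8%) were higher without overlap. The share of them that was also at least 2 times as high was not counted. The sums of the 33 contain the members, which held at least as many counts as the other clusters together in 29 of the 33. Both counts for the 33 therefore follow in large part from the rule. The sum overlapped between the groups in super-cluster Cluster-272402, and it was lower in every DAPT animal in super-clusters Cluster-167132, Cluster-69685 and Cluster-236009.

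The rest of a super-cluster, without its members, did not enter the rule. It was higher in every DAPT animal in 13 of the 33 super-clusters, overlapped in 17 and was lower in every DAPT animal in 3. No matching share over all super-clusters was counted. Counted over clusters, with each member alone taken out, the rest was higher without overlap for 19 of 37 members and lower for 3. For the 1706 clusters of all kinds that shared a super-cluster, it was higher for 164 (9.61%) and lower for 125. The median log2 ratio of the rest, DAPT over DMSO, was 0.98 for the 37 members and 0.05 for the 1706 clusters. The rest was measured in the same 6 animals, and 7 of the 37 members shared a super-cluster with another member, which then counted in its rest. This applies to the 19 members and to the median of 0.98. With all members taken out, the rest was higher without overlap for 14 of the 37.

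**Figure D4:**
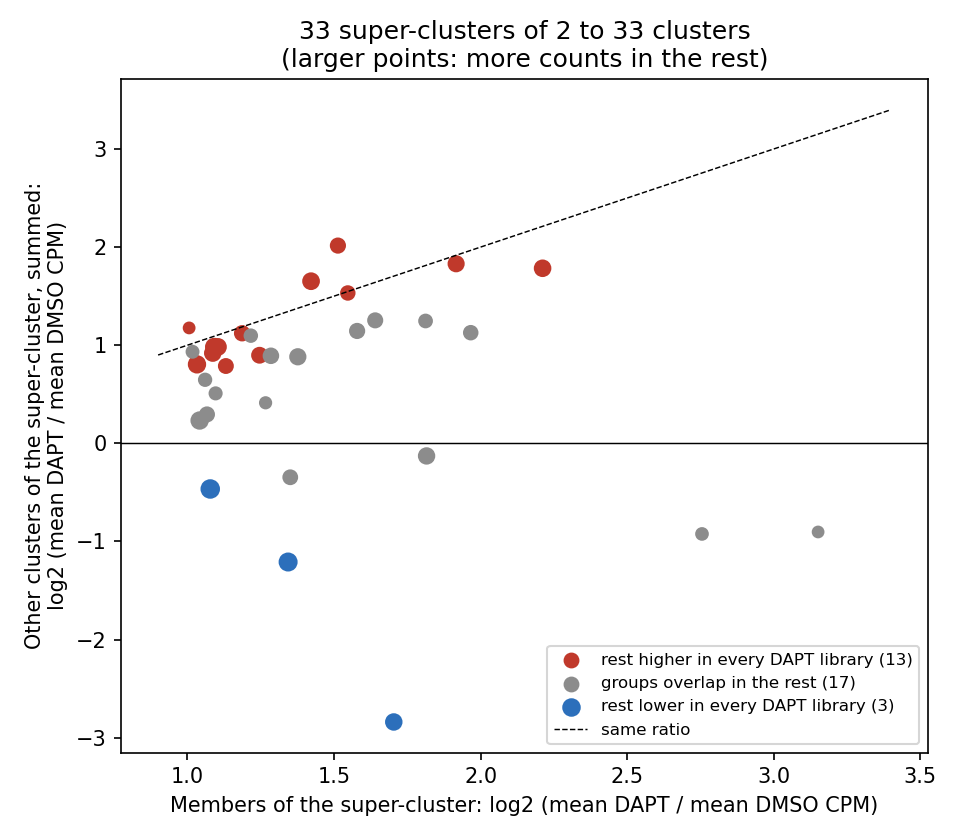
Log2 ratio of mean DAPT over mean DMSO CPM for the members of each of 33 super-clusters (horizontal) and for the other clusters of that super-cluster summed (vertical), with larger points where the rest held more counts. In 13 super-clusters the rest was higher in every DAPT animal (red), in 17 the groups overlapped (grey), and in 3 it was lower in every DAPT animal (blue).

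Super-cluster Cluster-203478 was higher as a whole. Its sum was 206, 143 and 208 CPM in DAPT 1, 2 and 3, against 43.0, 48.0 and 37.6 CPM in DMSO 1, 2 and 3. The rest, without Cluster-203478.3, was 34.0, 35.6 and 43.0 CPM in DAPT 1, 2 and 3, against 11.8, 11.8 and 9.08 CPM in DMSO 1, 2 and 3, a mean 3.44 times as high. Of its 5 other clusters, 4 were higher without overlap. Its largest, Cluster-203478.2, averaged 18.9 ± 0.267 CPM under DAPT and 4.57 ± 3.10 CPM under DMSO (SD, n = 3 each).

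A rest that was more than 3 times as high under DAPT was also found in super-clusters Cluster-30918, Cluster-242393 and Cluster-260084. In super-cluster Cluster-260084, of 9 clusters, the rest was 29.97, 68.9 and 34.97 CPM in DAPT 1, 2 and 3, against 12.6, 13.2 and 16.7 CPM in DMSO 1, 2 and 3. In super-cluster Cluster-30918, of 25 clusters, it was 24.2, 13.3 and 28.04 CPM in DAPT 1, 2 and 3, against 9.92, 3.83 and 4.69 CPM in DMSO 1, 2 and 3. In super-cluster Cluster-242393 it averaged 7.62 CPM under DAPT and 1.89 CPM under DMSO. In each of them the treated and control animals did not overlap in the rest.

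The 33 super-clusters held 194 other clusters, of which 43 (22.2%) were higher and 10 (5.15%) lower without overlap. Over the 10412 such clusters of all super-clusters of 2 to 1000 clusters that held a cluster the rule chose from, members left out, 762 (7.32%) were higher and 529 (5.08%) lower. In 5 super-clusters another cluster reached a mean raw count of 1000. Cluster-81084.1 averaged 46.9 ± 12.5 CPM under DAPT and 25.2 ± 2.77 CPM under DMSO, beside its member Cluster-81084.0. Cluster-329137.0 averaged 77.9 ± 10.7 CPM under DAPT and 44.6 ± 8.61 CPM under DMSO, and its member Cluster-329137.1 averaged 64.9 ± 5.97 CPM under DAPT and 31.7 ± 2.42 CPM under DMSO. Cluster-368230.0 averaged 29.2 ± 6.98 CPM under DAPT and 15.5 ± 3.48 CPM under DMSO, beside Cluster-368230.1 with 43.4 ± 8.37 CPM under DAPT and 20.4 ± 4.90 CPM under DMSO (SD, n = 3 each). In these 3 super-clusters both abundant clusters were higher in every treated animal, and the second one missed the rule because its mean was under 2 times as high.

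In super-clusters Cluster-167132 and Cluster-69685 the abundant clusters went apart. Cluster-167132.4, the member, had 52.3, 55.0 and 60.4 CPM in DAPT 1, 2 and 3, against 14.03, 0.112 and 51.9 CPM in DMSO 1, 2 and 3. Cluster-167132.5 had 5.44, 8.24 and 17.2 CPM in DAPT 1, 2 and 3, against 119, 147 and 44.4 CPM in DMSO 1, 2 and 3. The member was lowest in DMSO 2, where Cluster-167132.5 was highest. The other abundant clusters overlapped between the groups, with averages of 33.4 ± 12.4 CPM under DAPT and 46.0 ± 3.28 CPM under DMSO for Cluster-167132.0, and of 39.8 ± 9.83 CPM under DAPT and 37.5 ± 6.21 CPM under DMSO for Cluster-167132.7. The sum over all 9 clusters was 131, 132 and 194 CPM in DAPT 1, 2 and 3, against 257, 277 and 202 CPM in DMSO 1, 2 and 3, the opposite direction to the member.

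Cluster-69685.1 had 84.7, 76.1 and 61.2 CPM in DAPT 1, 2 and 3, against 2.68, 44.6 and 57.8 CPM in DMSO 1, 2 and 3. Cluster-69685.3 had 19.1, 13.3 and 140 CPM in DAPT 1, 2 and 3, against 354, 172 and 171 CPM in DMSO 1, 2 and 3. Cluster-69685.4 had 206, 187 and 90.0 CPM in DAPT 1, 2 and 3, against 16.3, 113 and 124 CPM in DMSO 1, 2 and 3, and overlapped between the groups. Within each group the member ranked the animals as Cluster-69685.4 did, and it was lowest, in DMSO 1, where Cluster-69685.3 was highest. The sum over the 6 clusters was 331, 294 and 316 CPM in DAPT 1, 2 and 3, against 375, 341 and 382 CPM in DMSO 1, 2 and 3.

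**Figure D5:**
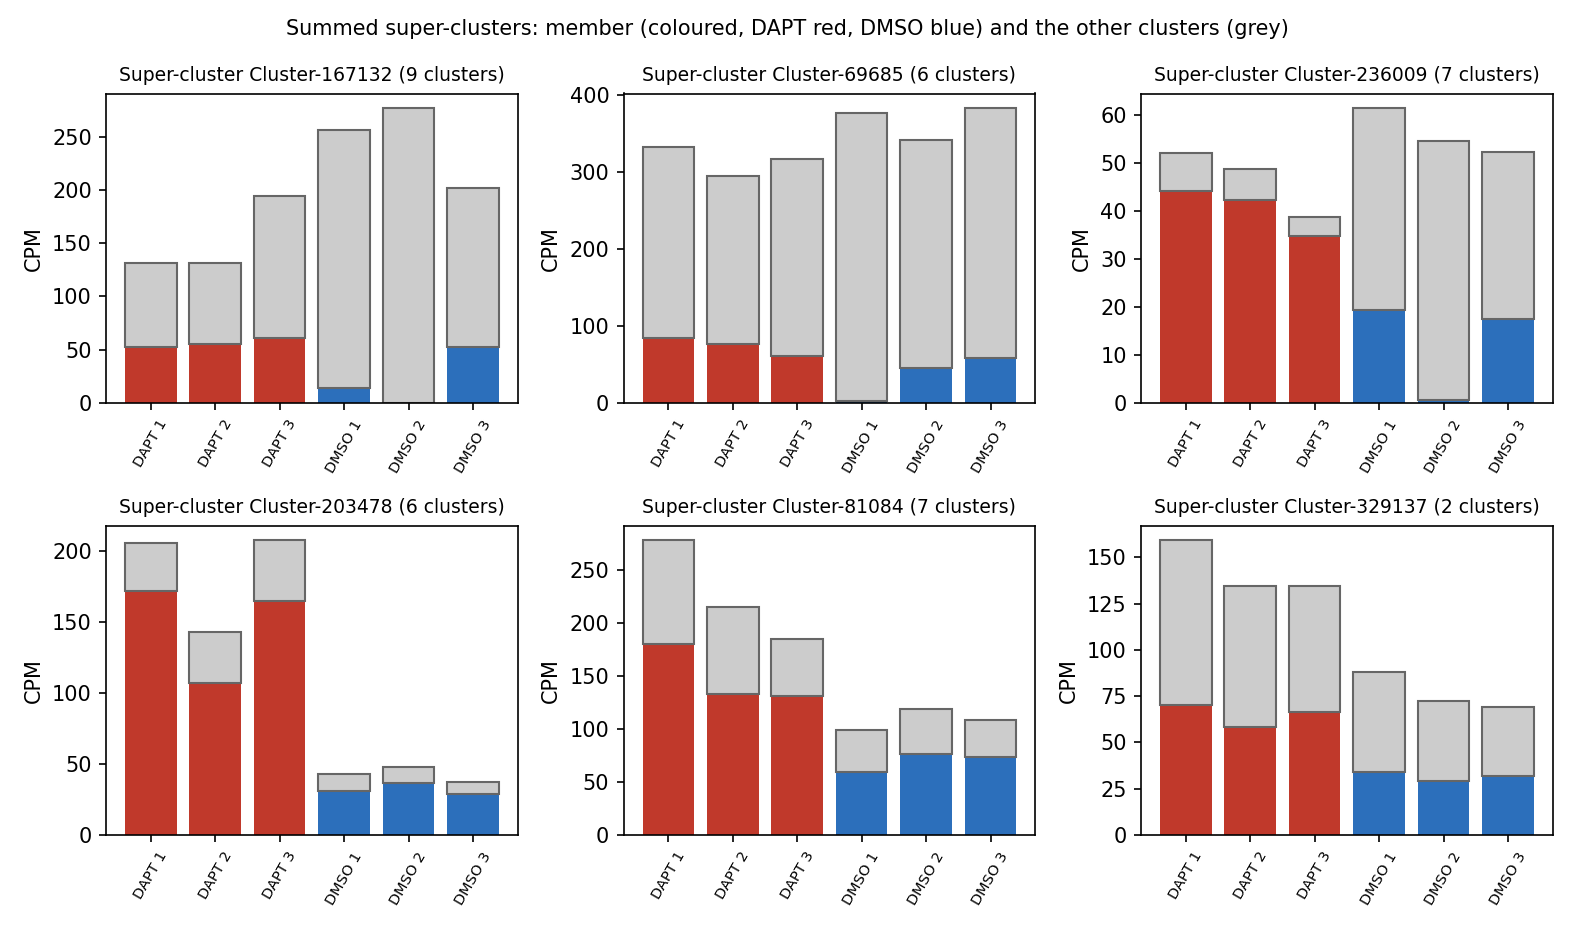
Summed CPM of 6 super-clusters in each animal, DAPT left and DMSO right, divided into the member (red under DAPT, blue under DMSO) and the other clusters (grey). In the upper row (Cluster-167132, Cluster-69685 and Cluster-236009) the sum was lower in every DAPT animal although the member was higher, and in the lower row (Cluster-203478, Cluster-81084 and Cluster-329137) the member and the rest were both higher in every DAPT animal.

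Super-cluster Cluster-236009 showed the same arrangement at lower counts. Its member, Cluster-236009.5, had 44.2, 42.4 and 34.8 CPM in DAPT 1, 2 and 3, against 19.3, 0.476 and 17.5 CPM in DMSO 1, 2 and 3. Cluster-236009.2 had 0, 0.0210 and 0.0209 CPM in DAPT 1, 2 and 3, against 13.3, 14.9 and 10.9 CPM in DMSO 1, 2 and 3. Cluster-236009.3 had 0.0159, 0.0210 and 0 CPM in DAPT 1, 2 and 3, against 17.1, 20.7 and 13.4 CPM in DMSO 1, 2 and 3. These 2 clusters had 1 count or none in each treated animal. The sum of all 7 was 52.1, 48.8 and 38.8 CPM in DAPT 1, 2 and 3, against 61.5, 54.6 and 52.3 CPM in DMSO 1, 2 and 3. The lowest control sum exceeded the highest treated one by less than 1 CPM.

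The 4 super-clusters whose sum was not higher in every DAPT animal were also the 4 whose member was nearly absent in 1 control animal. In 11 of the 99 members (11.1%) the lowest DMSO animal was under 10% of the highest one, against 337 of the 5208 clusters (6.47%). The animal was DMSO 1 in 7 members (1 of them tied at 0 with DMSO 3) and DMSO 2 in 4. A near-absent control also lowers the DMSO mean that the rule used, so this share is a description only. The 11 include Cluster-208037.0, Cluster-178672.344348 and Cluster-178672.378766, which were low in all control animals. For Cluster-208037.0 and Cluster-178672.344348 the comparison is of 0 counts with only 3 and 2 counts. Of these 11, 4 shared a smaller super-cluster. Their sums were lower in every DAPT animal for 3 and overlapped for 1, whereas the sum was higher in every DAPT animal for all 33 other members that shared a super-cluster. The overlapping one, Cluster-272402.3, had 66.3, 96.4 and 33.9 CPM in DAPT 1, 2 and 3, against 0, 30.6 and 25.2 CPM in DMSO 1, 2 and 3, while Cluster-272402.2 of the same super-cluster had 41.3, 0.441 and 11.3 CPM in DAPT 1, 2 and 3, against 12.7, 42.4 and 3.78 CPM in DMSO 1, 2 and 3. How far the division of contigs into clusters sets these differences was not tested.

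In 3 of the 33 smaller super-clusters more than 1 cluster met the rule. Super-cluster Cluster-156235 held 3 members and took nearly all its counts from them. Cluster-156235.1 had 52.7, 44.9 and 45.4 CPM in DAPT 1, 2 and 3, against 13.6, 19.7 and 21.9 CPM in DMSO 1, 2 and 3. Cluster-156235.2 and Cluster-156235.4 had ratios of 2.18 and 2.22, and the sum of the super-cluster averaged 132 CPM under DAPT and 56.8 CPM under DMSO. In super-cluster Cluster-290790, Cluster-290790.4 had 99.3, 94.5 and 104 CPM in DAPT 1, 2 and 3, against 41.1, 34.5 and 65.5 CPM in DMSO 1, 2 and 3. Its partner Cluster-290790.2 was lower in level but had the same order of animals, with a ratio of 2.23, and the remaining clusters of that super-cluster averaged 41.3 ± 6.26 CPM under DAPT and 20.9 ± 7.97 CPM under DMSO (SD, n = 3 each). Super-cluster Cluster-198606 held Cluster-198606.0 and Cluster-198606.4, with ratios of 2.78 and 2.48, and its rest overlapped between the groups.

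The test across all clusters used the same contrast as the rule, so its calls describe the members and nothing is read from them. In edgeR's quasi-likelihood test over 970597 clusters, with calls at 0.05 for the adjusted p and at 0.58 for the size of the log2 fold change, 5 clusters were called higher under DAPT (0.000515%) and 0 of the 99 members were among them. The smallest adjusted p among the members was 0.0802, in Cluster-208037.0, which had an edgeR log2 fold change of 10.26 ± 1.03 (SE). In edgeR's test 91 of the 99, selected on this difference, and 77798 of the 970597 clusters (8.02%) had an unadjusted p under 0.05. With only clusters of a mean raw count of at least 1000 in edgeR's test, it was 83 of the 99 and 558 of 5408. DESeq2 called 1973 clusters higher (0.203%), of which 30 were among the 5208 (0.576%) and 23 were members, and these 23 had a median ratio of 4.63 and held 9 of the 10 highest ratios and all 14 members in which every DAPT animal was at least 2 times as high as every DMSO animal.

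On the scale of the edgeR fit, Cluster-203478.3 had a log2 fold change of 2.20 ± 0.24 (SE) and Cluster-178672.415728 one of 2.97 ± 0.35. Cluster-178672.406699 and Cluster-178672.117973 had log2 fold changes of 1.62 ± 0.20 and 1.37 ± 0.21. With Cluster-208037.0 these were the 5 members with the smallest edgeR p. The SE so derived was far larger in members that varied within a group. Cluster-178672.344348, whose fitted value depends on the prior count, had a log2 fold change of 11.03 ± 2.32, Cluster-167132.4 one of 1.37 ± 1.31 and Cluster-178672.270573 one of 1.88 ± 1.26.

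The test was also run on summed super-clusters. Of the 39 super-clusters of the 43 members outside the largest one, edgeR's test called 0, among 373181 tested with 0 called higher (0%). The smallest adjusted p was 0.0726, for super-cluster Cluster-208037, and 36 of the 39, whose sums contain the selected members, had an unadjusted p under 0.05 in edgeR, against 24657 of all super-clusters (6.61%). Most of those held fewer counts. When the mean sum had to reach 1000 counts, edgeR gave such a p for 34 of the 39 and for 354 of 2369. DESeq2 called 7 of the 39 higher, among 551 called in all (0.148%): super-clusters Cluster-156235, Cluster-203478, Cluster-208037, Cluster-261036, Cluster-329137, Cluster-341742 and Cluster-373002. With the members' counts removed, edgeR called 0 of 33 (0% of 373175), with a smallest adjusted p of 0.512 and 15 of 33 at an unadjusted p under 0.05 in either direction, against 24662 of all (6.61%). When the mean had to reach 1000 counts, edgeR gave such a p, in either direction, for 9 of the 10 rests tested and for 341 of 2340. Of these 10 rests, 7 had a positive log2 fold change and the others a negative one. DESeq2 then called the rest of super-cluster Cluster-203478 higher and the rest of super-cluster Cluster-236009 lower, against 545 super-clusters called higher (0.146%) and 753 called lower (0.202%) in all. The rest of super-cluster Cluster-203478 had an edgeR log2 fold change of 1.77 ± 0.21 and that of super-cluster Cluster-236009 one of -2.86 ± 0.31 (SE).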

How the data were processed

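The authors assembled trimmed reads of the 6 libraries, with a pooled library not used here, by Trinity, assigned the reads of each library with Salmon v0.13.1 and grouped contigs with Corset 1.08. Corset was told the treatment groups, which thus entered the definition of clusters before any test. The deposited table holds raw counts for each Corset cluster in each library, whole numbers without normalization. Bowtie2 and DESeq2 are also named in the submitters' processing notes. Reads were assigned without strand, so a transcript and an overlapping antisense one cannot be told apart.

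Sample labels gave the groups and replicate numbers, and the study's methods gave the dose, day and pooling. CPM used column totals. Clusters with at least 10 counts over the 6 libraries, and likewise super-cluster sums, were tested in R 4.3.3 by edgeR 4.0.16 (quasi-likelihood test, version-4 estimate, TMM, Benjamini-Hochberg adjustment) and by DESeq2 1.42.0 (independent filtering). limma 3.58.1, Python 3.11.15, numpy 2.4.6, pandas 2.3.3, scipy 1.17.1 and matplotlib 3.10.9 were also used. Only edgeR's main fit was run on simulated counts. These varied less than the data, whose fitted dispersion was 0.515, so the run does not show how the fit performs on such data. Intervals and floors (3 counts) cover counting error only.

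The members, lists and tests were chosen with earlier results of these data known. Named clusters are the 10 of highest mean CPM, the 10 of highest ratio, the 5 of smallest edgeR p and members whose super-cluster holds another cluster of mean raw count of at least 1000, and others named were chosen after their values were seen. Alternatives were other scalings, thresholds, filters and tools, the replicate block and leaving out each library.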

Additional observations from a re-analysis of the deposited data

How the results depend on the processing

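The rule gave 99 clusters. TMM factors gave 96 (94 of them members), DESeq2 size factors 100 (95 members) and keeping the 200 most abundant clusters 100. By construction, a minimum mean raw count of 500 gave 260 clusters and one of 2000 gave 33, and a ratio of at least 1.5 gave 272 and one of at least 3 gave 36. Leaving out 1 library at a time, which loosens the condition on overlap, gave 160 to 254. edgeR's test called 0 members with every library left out in turn (0 to 0), with voom, without a filter or fold threshold, with DESeq2 size factors and with edgeR's older estimate, which was chosen after seeing the data. It called 1 member, Cluster-208037.0, when 10 counts were required in each of 3 libraries, and DESeq2 called 23. Of the super-cluster sums edgeR called 2 (Cluster-208037 and Cluster-203478) when the mean sum had to reach 1000 counts, where fewer were tested, and 0 to 1 with 1 library left out, the 1 being Cluster-208037 without DAPT 3, and DESeq2 called 7. Of the rests, DESeq2 called 1 higher (Cluster-203478) and 1 lower (Cluster-236009). For the 26 named members, 208 alternative values were taken from DESeq2, the replicate block and leaving out each library. Of these values, 194 kept direction and side of the threshold, 14 passed it, all under DESeq2, and 0 reversed. The side kept was that of members not called. The rule put every DAPT library above every DMSO library, so the kept direction follows from the selection. The cause of the difference between the tools was not tested.

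The labels number the animals 1 to 3 in both groups, but deviations from the group means correlated by only 0.022, 0.033 and 0.059 between animals of the same number, so the numbers were not taken as pairs; each animal correlated best with its own number, a hint from the data only. With the replicate number as a block, edgeR called 0 members (smallest adjusted p 0.687), 0 super-cluster sums and 0 rests. Depth limits the ratios of Cluster-208037.0 and Cluster-178672.344348, which rest on 4 and 2 control counts. Contigs were not paired with genes, so whether several members belong to 1 gene was not tested.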
